A study of Mus musculus with 49 samples.

Results

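Interleukin 1 signalling is set by a small group of genes: the agonists Il1a and Il1b, the receptor antagonist Il1rn, the signalling receptor Il1r1 with its accessory chain Il1rap, the decoy receptor Il1r2, the related receptor Il1rl1, the related cytokine Il18, and Casp1, whose protease processes the precursors of interleukin 1 beta and interleukin 18. They were read from Affymetrix mouse arrays of a time course of arthritis brought on by serum of K/BxN mice, as all probe sets annotated to exactly one of these symbols. Of the 9 genes listed, 8 had such a probe set, among 8251 genes on the array. Il1rl1 was not analysed here. Il1r2 had 2 probe sets and the other genes had 1, and the values given are those of the probe set that was brightest on average across all 49 arrays.

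The arrays come from 3 tissues of male B6 mice of 6 weeks. Cells of the synovial fluid were taken 3, 7, 12 and 18 days after the first injection of serum (n = 3, 4, 3 and 3 arrays). Whole ankles were taken at days 0, 1, 3, 7, 12 and 18 (n = 4, 2, 3, 4, 3 and 3), and blood leukocytes after red cell lysis at the same days (n = 3, 3, 3, 3, 3 and 2). Every mouse is described by its day after serum, and the reference within ankle and blood is day 0, since no group given a control serum is used here. B6 is the C57BL/6 background, no transgene or deletion is named in the labels, and the fluid has no day 0. Whether an array stands for 1 animal or a pool is stated nowhere, and biological replicates are named for blood alone, so that p-values measure the spread between these arrays, which may be partly technical.

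Both agonists bind the receptor encoded by Il1r1, which then recruits the chain encoded by Il1rap and signals through MyD88 to NF-kB. The antagonist occupies the same receptor without recruiting the accessory chain, and the decoy binds the agonists but lacks the cytoplasmic signalling domain. Macrophages and neutrophils are well known sources of interleukin 1 beta and of the antagonist, fibroblast-like cells of the joint lining respond to the agonists, and mice without the signalling receptor are known to resist arthritis from K/BxN serum.

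The 250 bases before the annotated start of the genes for both agonists, the antagonist and the decoy are shown, as these were chosen for comparison. They are RefSeq sequences of GRCm38.p6, all 8 genes had an entry in that table, and capitals mark the letters of a searched motif on either strand. Il1b and Il1a lie on the minus strand, at chr2:129371140-129371389 and chr2:129309973-129310222. Il1rn and Il1r2 lie on the plus strand, at chr2:24345121-24345370, the last of 3 annotated starts of Il1rn, and at chr1:40085843-40086092.
Il1b: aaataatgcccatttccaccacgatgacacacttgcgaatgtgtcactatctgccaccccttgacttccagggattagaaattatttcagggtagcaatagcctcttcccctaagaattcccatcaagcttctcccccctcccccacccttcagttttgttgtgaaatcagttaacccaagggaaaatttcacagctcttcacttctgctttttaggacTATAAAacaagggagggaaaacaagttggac
Il1a: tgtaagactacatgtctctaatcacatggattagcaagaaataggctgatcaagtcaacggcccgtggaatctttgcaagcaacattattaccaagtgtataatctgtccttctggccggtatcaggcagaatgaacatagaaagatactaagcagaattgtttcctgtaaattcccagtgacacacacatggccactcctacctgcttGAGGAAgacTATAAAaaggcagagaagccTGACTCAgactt
Il1rn: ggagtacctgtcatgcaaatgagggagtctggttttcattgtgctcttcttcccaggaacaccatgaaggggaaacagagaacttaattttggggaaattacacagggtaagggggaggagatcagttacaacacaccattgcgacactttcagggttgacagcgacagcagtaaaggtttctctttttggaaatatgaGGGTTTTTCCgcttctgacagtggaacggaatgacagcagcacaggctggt
Il1r2: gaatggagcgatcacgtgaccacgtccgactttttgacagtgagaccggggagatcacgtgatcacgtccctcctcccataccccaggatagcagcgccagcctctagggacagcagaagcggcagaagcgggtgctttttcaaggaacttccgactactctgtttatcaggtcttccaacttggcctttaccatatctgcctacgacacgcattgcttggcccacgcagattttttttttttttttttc

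The letters searched for, on both strands, were TATAAA, known as the TATA box. For AP-1 they were TGANTCA. For the core of a PU.1 site they were GAGGAA, and for NF-kB they were GGG and CC with any 5 bases between them. Among 32851 windows of 250 bases before a start, 12.4% held TATAAA, 6.75% held TGANTCA, 23.3% held GAGGAA and 45.8% held the NF-kB letters. The window of Il1b held only the TATA letters, starting at -31 from the annotated start. That of Il1a held them at -32, with GAGGAA at -41 and TGANTCA at -12. The window shown for Il1rn held 1 match to the NF-kB letters, at -51, and that of Il1r2 held none of the 4 motifs. For Il1rn the content depends on the start. The window of its first annotated start held TGANTCA at -141 and the NF-kB letters at -54, and that of the second held none of the 4 motifs. The matches do not overlap each other, and they describe letters in these windows and not binding.

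Values below are log2 of the deposited intensity. On this scale the median of the 34 negative control probe sets was 4.40 and their 95th percentile 6.85, and a value under 6.85 is called within the range of the negative controls. A fold is given only where both groups lie above it, and a log2 difference against a group within it is at best a lower bound of the change. Il1b, Il1rn and Il1r2 had group means above 6.85, and Il1a, Il1r1, Il1rap, Il18 and Casp1 had none, which places their differences near background. In ankle, the means of Il1b and Il1rn also lay within the range at days 0, 1 and 3, and that of Il1b at day 7. Each of the 3 tissues holds a mix of cell types, so more cells of a type and more RNA per cell cannot be told apart.

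**Figure D1:**
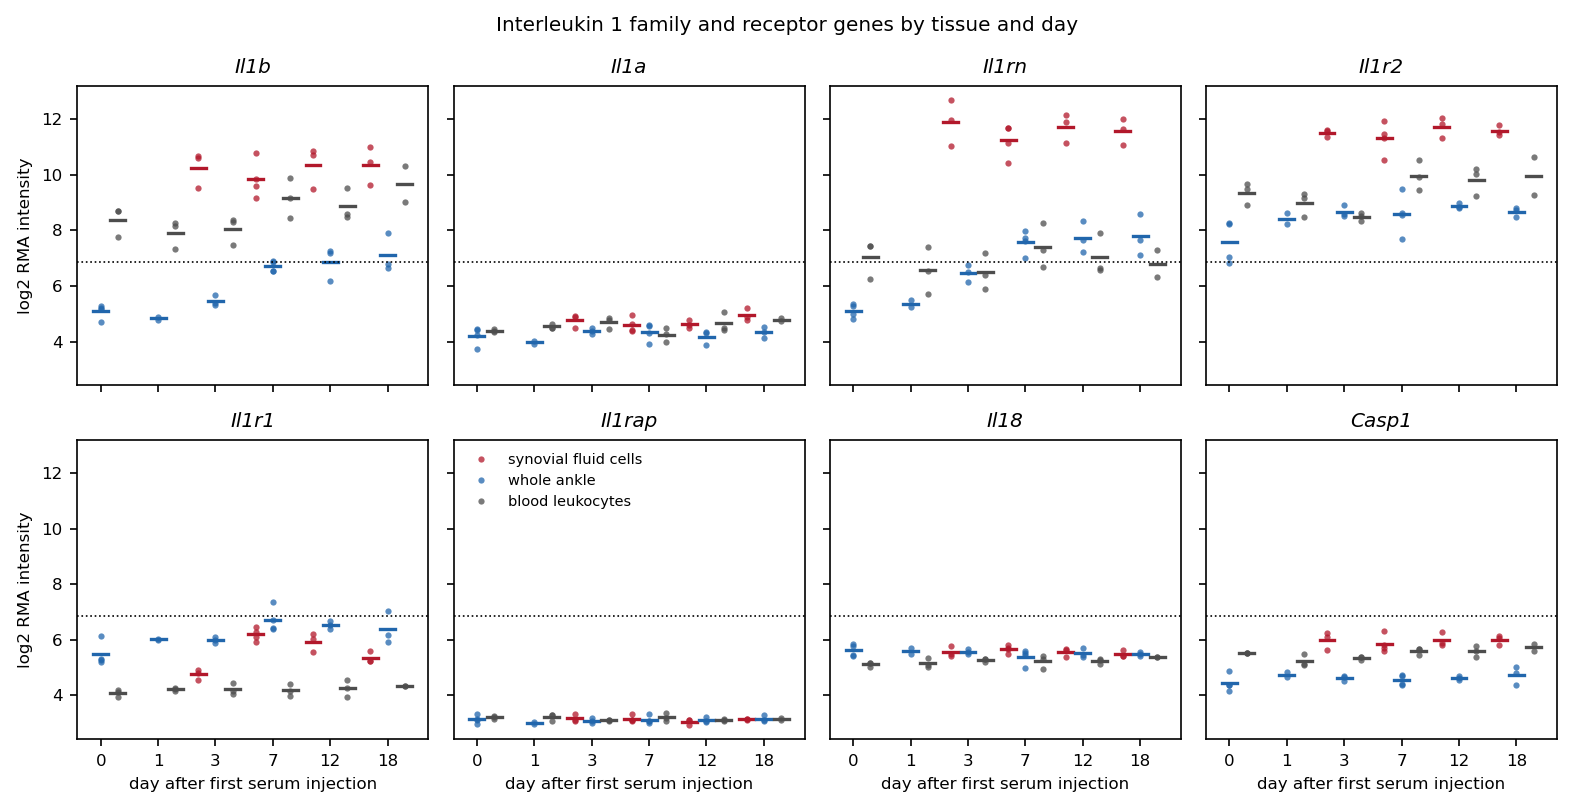
Log2 intensity (vertical axis) of the 8 genes by day after the first serum injection (horizontal axis), with 1 point per array, bars at group means and a dotted line at 6.85, the 95th percentile of the negative controls. Il1b, Il1rn and Il1r2 of the synovial fluid cells lie between 9.18 and 12.71, while Il1rap lies between 2.91 and 3.36 in every array.

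Il1b, the agonist that is secreted after cleavage, rose in the inflamed ankle and stood highest in the cells of the synovial fluid. In ankle its log2 values were 5.29, 4.72, 5.17 and 5.21 at day 0, 4.90 and 4.78 at day 1, 5.67, 5.38 and 5.33 at day 3, 6.91, 6.88, 6.56 and 6.55 at day 7, 7.19, 6.18 and 7.25 at day 12, and 6.65, 6.78 and 7.92 at day 18. Every ankle array from day 3 on lay above the 4 arrays of day 0, and the arrays of days 7 to 18 lay above those of day 3. By limma with Benjamini-Hochberg adjustment over 8251 genes, Il1b was higher than at day 0 by 1.63 ± 0.26 (SE) at day 7 (adjusted p = 0.000706), 1.78 ± 0.28 at day 12 (adjusted p = 0.00102) and 2.02 ± 0.28 at day 18 (adjusted p = 0.000317). At day 3 the difference was 0.36 ± 0.28 and did not pass (adjusted p = 0.857). The ankle means of days 0, 3 and 7 (5.10, 5.46 and 6.72) lay within the range of the controls. Those of days 12 and 18 (6.87 and 7.12) lay above it. The differences from day 0 are thus at best lower bounds.

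Fluid cells had Il1b at 9.52, 10.60 and 10.67 at day 3, 9.18, 10.77, 9.86 and 9.59 at day 7, 10.71, 9.48 and 10.88 at day 12, and 9.63, 10.46 and 10.99 at day 18. Blood leukocytes had it at 8.70, 7.76 and 8.68 at day 0, 8.15, 7.35 and 8.26 at day 1, 8.30, 7.49 and 8.37 at day 3, 9.89, 9.16 and 8.44 at day 7, 9.51, 8.48 and 8.61 at day 12, and 9.03 and 10.33 at day 18. The order was fluid, blood, ankle at every shared day, but the fluid and blood arrays overlapped at days 7, 12 and 18. Over the days that both tissues share, Il1b was 2.41-fold higher in fluid cells than in blood (log2 difference 1.27 ± 0.24, adjusted p = 7.65e-05), with day differences of 2.21, 0.69, 1.49 and 0.68 at days 3, 7, 12 and 18. Against ankle the fluid cells were higher by 3.66 ± 0.20 (adjusted p = 7.61e-15), and no fluid array overlapped an ankle array. This is at best a lower bound, because the ankle means of days 3 and 7 lay within the range of the controls. Within blood no day passed the test, and the largest difference was 1.3 ± 0.48 at day 18 (2 arrays, adjusted p = 0.22). That difference ranged from 0.65 without replicate 2 of day 18 to 1.95 without replicate 1, neither passing, and it passed with array weights (1.19, adjusted p = 0.0297).

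Il1a, the agonist that also acts from within or on the surface of cells, stayed within the range of the negative controls in all 49 arrays. It lay between 4.40 and 5.20 in fluid cells, 3.73 and 4.59 in ankle, and 3.99 and 5.06 in blood. Its differences in ankle ran only from -0.24 at day 1 to 0.17 at day 3. Fluid cells were higher than ankle by 0.43 ± 0.09 (adjusted p = 0.000421), a small difference among values close to the median of the controls.

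Il1rn, which encodes the antagonist, had the largest differences of these genes in ankle from day 3 on, and it separated the fluid cells from both other tissues. Its ankle values were 5.27, 4.98, 4.80 and 5.35 at day 0, 5.50 and 5.23 at day 1, 6.77, 6.49 and 6.13 at day 3, 7.73, 7.61, 7.00 and 7.98 at day 7, 8.35, 7.23 and 7.65 at day 12, and 7.13, 7.64 and 8.58 at day 18. The 3 arrays of day 3 already lay above all arrays of days 0 and 1, and from day 7 all arrays lay above 6.85. Against day 0 the difference was 1.37 ± 0.31 at day 3, which did not pass (adjusted p = 0.0881), 2.48 ± 0.29 at day 7 (adjusted p = 3.37e-05), 2.64 ± 0.31 at day 12 (adjusted p = 5.29e-05) and 2.68 ± 0.31 at day 18 (adjusted p = 5.45e-05). Day 18 differed from day 7 by 0.20 ± 0.31 (adjusted p = 0.999).

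The antagonist gene in fluid cells read 11.04, 11.98 and 12.71 at day 3, 10.44, 11.71, 11.69 and 11.13 at day 7, 12.15, 11.13 and 11.90 at day 12, and 11.09, 12.00 and 11.66 at day 18. In blood it read 7.42, 6.26 and 7.44 at day 0, 7.42, 5.71 and 6.55 at day 1, 7.18, 5.89 and 6.39 at day 3, 8.27, 7.29 and 6.67 at day 7, 7.91, 6.56 and 6.65 at day 12, and 6.31 and 7.28 at day 18. Even the lowest fluid array lay more than 1 log2 unit above the highest array of ankle or blood. Over the shared days Il1rn was higher in fluid cells than in blood by a log2 difference of 4.68 ± 0.26 (adjusted p = 1.51e-14) and than in ankle by 4.22 ± 0.19 (adjusted p = 2.64e-16). Both are at best lower bounds, because the blood means of days 3 and 18 (6.49 and 6.80) and the ankle mean of day 3 (6.47) lay within the range of the controls. In blood it followed no order by day, and its differences from day 0 ran from -0.55 ± 0.51 at day 3 to 0.37 ± 0.51 at day 7. Ankle and blood arrays overlapped at each of days 3 to 18, although at day 0 Il1rn was lower in ankle than in blood (log2 difference -1.94 ± 0.43, adjusted p = 0.000406).

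Il1r2, the decoy receptor, stood highest in fluid cells, and its differences in ankle, all positive, did not pass the test. Its ankle values were 8.25, 8.27, 6.84 and 7.04 at day 0, 8.62 and 8.23 at day 1, 8.58, 8.92 and 8.52 at day 3, 9.50, 8.62, 8.57 and 7.70 at day 7, 8.81, 8.85 and 8.98 at day 12, and 8.72, 8.47 and 8.79 at day 18. The 4 arrays of day 0 fell into a higher and a lower pair, and the arrays of day 7 spread from 7.70 to 9.50. All 5 differences from day 0 were positive, between 0.82 ± 0.41 at day 1 and 1.28 ± 0.36 at day 12, and none passed (lowest adjusted p = 0.0615, at day 12). The call depended on the processing. Day 12 passed without the 4 ankle arrays that carry albumin transcripts (1.53, adjusted p = 0.0246), after quantile normalization anew (1.31, adjusted p = 0.0441), with the mean of both probe sets (1.06, adjusted p = 0.0265) and in 1 fit of all 49 arrays (adjusted p = 0.0213). Day 7 passed in that fit too (adjusted p = 0.0481), day 18 without the albumin arrays (1.28, adjusted p = 0.048), and days 3 to 18 with array weights (highest adjusted p = 0.000621). Leaving out replicate 1 or 2 of day 0 made days 7 and 12 pass, and leaving out replicate 4 of day 7 made day 7 pass (adjusted p = 0.0233). With the replicate number as a block, days 7 and 12 passed as well. The other probe set of Il1r2 gave 0.34, 0.38, 0.50, 0.85 and 0.93 at days 1, 3, 7, 12 and 18, of which days 12 and 18 passed when it was used instead (adjusted p = 0.0144 and 0.0115).

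Fluid cells had Il1r2 at 11.36, 11.63 and 11.57 at day 3, 11.34, 11.94, 11.47 and 10.53 at day 7, 11.84, 11.32 and 12.04 at day 12, and 11.55, 11.81 and 11.42 at day 18. Blood leukocytes had it at 8.91, 9.50 and 9.68 at day 0, 9.16, 9.32 and 8.50 at day 1, 8.53, 8.35 and 8.62 at day 3, 10.55, 9.91 and 9.45 at day 7, 10.02, 9.23 and 10.19 at day 12, and 9.28 and 10.63 at day 18. Fluid cells were above ankle in all arrays, and above blood except that the lowest fluid array, at day 7, lay below the highest blood arrays. The decoy gene was 3.95-fold higher in fluid cells than in blood (log2 difference 1.98 ± 0.18, adjusted p = 3.03e-10) and 7.15-fold higher than in ankle (2.84 ± 0.18, adjusted p = 1.86e-13). The other probe set gave larger log2 differences, 2.67 against blood and 3.2 against ankle. The name of the brighter probe set carries the array design's mark for probes shared within a sequence family, so that some of its signal may come from related transcripts. No day passed in blood, where the largest decrease was at day 3 (-0.86 ± 0.36 against day 0, adjusted p = 0.223), when its 3 arrays lay below the 3 of day 0.

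Il1r1, the signalling receptor, was highest in ankle, lower in fluid cells and lowest in blood. It was within the range of the negative controls in every group mean. In ankle it read 5.26, 6.14, 5.31 and 5.19 at day 0, 6.00 and 6.03 at day 1, 5.97, 6.11 and 5.87 at day 3, 6.37, 7.37, 6.43 and 6.72 at day 7, 6.39, 6.51 and 6.66 at day 12, and 6.18, 5.91 and 7.03 at day 18. Its difference from day 0 was 1.25 ± 0.25 at day 7 (adjusted p = 0.0043), 1.04 ± 0.27 at day 12 (adjusted p = 0.0398) and 0.90 ± 0.27 at day 18, which did not pass (adjusted p = 0.115). The call at day 12 was lost when any 1 ankle array of day 12, or of day 0 other than replicate 2, was left out (highest adjusted p = 0.164), and without replicate 2 of day 0, the highest of that group, day 18 passed (1.12, adjusted p = 0.0226). With the 3' to 5' beta-actin ratio as a covariate, day 7 was 1.16 (adjusted p = 0.0514) and day 12 was 0.93 (adjusted p = 0.28), and without the 4 albumin arrays day 12 was 1.04 (adjusted p = 0.0867).

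In fluid cells Il1r1 read 4.91, 4.80 and 4.54 at day 3, 6.12, 6.47, 5.92 and 6.26 at day 7, 6.19, 5.55 and 6.04 at day 12, and 5.25, 5.23 and 5.59 at day 18. It was highest at day 7, and all later arrays lay above the 3 arrays of day 3. Against day 3 it rose by 1.44 ± 0.18 at day 7 (adjusted p = 0.000208) and by 1.18 ± 0.19 at day 12 (adjusted p = 0.00172), while day 18 was 0.61 ± 0.19 and did not pass (adjusted p = 0.105). Blood held Il1r1 between 3.92 and 4.55 at all days. Fluid cells were higher than blood by 1.31 ± 0.09 (adjusted p = 8.21e-13) and lower than ankle (log2 difference -0.84 ± 0.13, adjusted p = 2.93e-06).

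Markers of fibroblasts moved with Il1r1 in the fluid. The summed intensity of the 9 measured genes of a 10-gene fibroblast list was 2263 to 4392 in fluid cells at day 3, 8998 to 17519 at day 7, 13008 to 18463 at day 12 and 14555 to 16953 at day 18, against 17768 to 28142 in ankle and 1039 to 1271 in blood over all days. Col1a1 and Col3a1 reached log2 medians of 10.48 and 11.51 in fluid cells, and 6 of the 9 genes rose at day 7 against day 3. At day 18 the marker sums overlapped those of day 12, while 2 of the 3 Il1r1 values of day 18 lay below all 3 of day 12. The part of such cells in the rise of Il1r1 in the fluid was not tested.

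**Figure D2:**
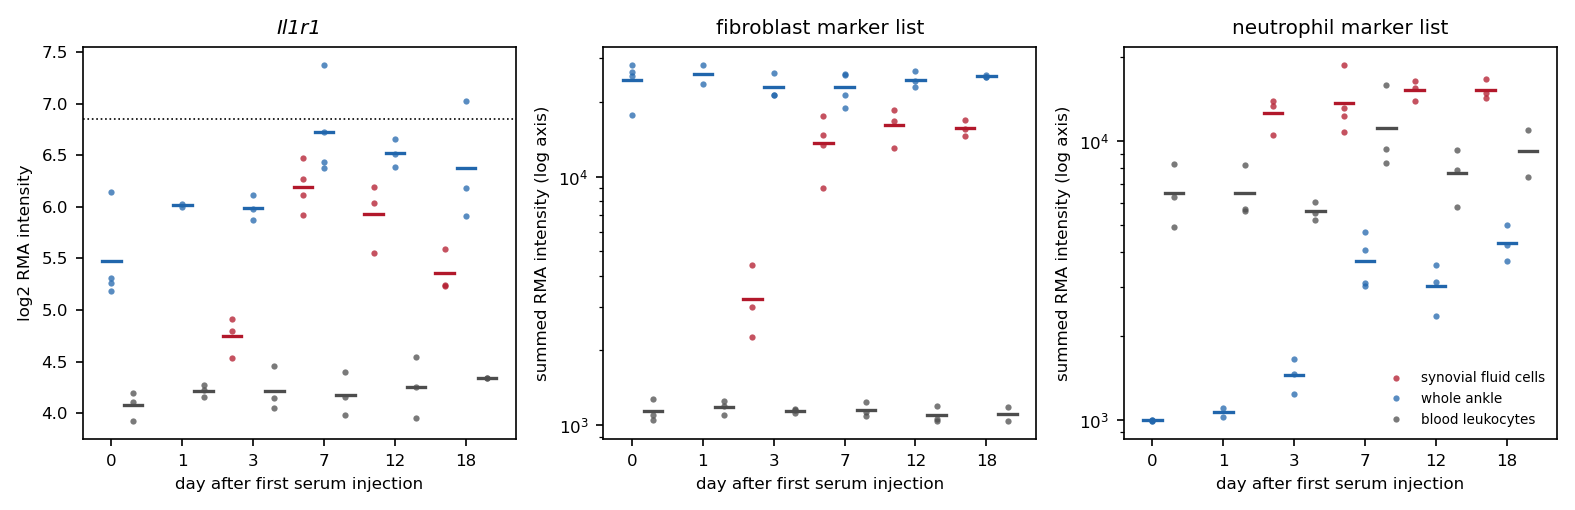
Log2 intensity of Il1r1 and summed intensity of the fibroblast and neutrophil marker lists (log axes) by day after the first serum injection, with 1 point per array and bars at group means; the dotted line is at 6.85. In fluid cells Il1r1 stands between 4.54 and 4.91 at day 3 and between 5.92 and 6.47 at day 7, while the fibroblast sum is at 2263 to 4392 at day 3 and 8998 to 17519 at day 7.

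Il1rap, the accessory chain, was between 2.91 and 3.32 in fluid cells, 2.96 and 3.33 in ankle, and 3.08 and 3.36 in blood. These are below the median of the negative controls, and 0 of the comparisons of Il1rap passed. Il18 varied little, between 5.39 and 5.82 in fluid cells, 4.99 and 5.83 in ankle, and 4.93 and 5.41 in blood. It was higher in fluid cells than in blood by 0.29 ± 0.07 (adjusted p = 0.000432), and at day 0 it was higher in ankle than in blood by 0.51 ± 0.13 (adjusted p = 0.00263). Casp1 lay between 5.59 and 6.30 in fluid cells, 4.16 and 5.02 in ankle, and 5.08 and 5.85 in blood. Fluid cells were higher by 1.32 ± 0.10 than ankle (adjusted p = 4.27e-12), with no overlap, and by 0.39 ± 0.09 than blood (adjusted p = 0.000532). Casp1 in ankle differed from day 0 by at most 0.29, at day 1, and none of its days passed there.

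Counted over the group, ankle had 0 of 8 genes called at day 1 (0% of all genes), 0 on day 3 (0.23%), 3 on day 7 (6.73%, 3.09% higher), 3 on day 12 (3.24%, 1.87% higher) and 2 on day 18 (2.01%, 1.13% higher), all of them higher. Without adjustment, 0 of the 8 on day 1 and 2 on day 3 had p under 0.05 (150 and 711 of all genes). These comparisons share the 4 day 0 arrays, and day 18 against day 7 called 0 of 8 (0.0606% of all genes; 0 with unadjusted p under 0.05). The median difference of the 8 genes was 0.56 at day 7, 0.61 at day 12 and 0.59 at day 18, and that of all genes was between -0.03 and 0.00 at those days. Blood had 0 of 8 called at each day (0% of all genes at each), with 1, 1, 0, 0 and 2 of the 8 under an unadjusted p of 0.05 at days 1, 3, 7, 12 and 18, beside 589, 1702, 168, 513 and 1693 of all 8251 genes. In fluid cells 1 of 8, Il1r1, was called higher at day 7 (2.56% of all genes, 2.17% higher) and at day 12 (2.7%, 2.42% higher), and 0 at day 18 (3.19%; 1 with unadjusted p under 0.05, again Il1r1, beside 1247 of all genes).

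Between tissues the calls were many among all genes, so that the counts weigh little. Fluid cells against blood gave 6 of 8 genes higher and 0 lower, where 58.8% of all genes were called (24.8% higher, 34% lower). Fluid cells against ankle gave 5 higher and 1 lower, Il1r1, where 38.1% of all genes were called (18.7% higher, 19.4% lower). Ankle against blood at day 0 gave 2 higher, Il1r1 and Il18, and 4 lower, where 42.2% of all genes were called (22.4% higher, 19.8% lower). The 4 lower ones had log2 differences of -3.28 ± 0.36 for Il1b, -1.94 ± 0.43 for Il1rn, -1.76 ± 0.37 for Il1r2 and -1.07 ± 0.15 for Casp1. Tissue and RNA preparation cannot be told apart for most arrays, since ankle RNA had 2 rounds of amplification and most fluid and blood samples are described otherwise.

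**Figure D3:**
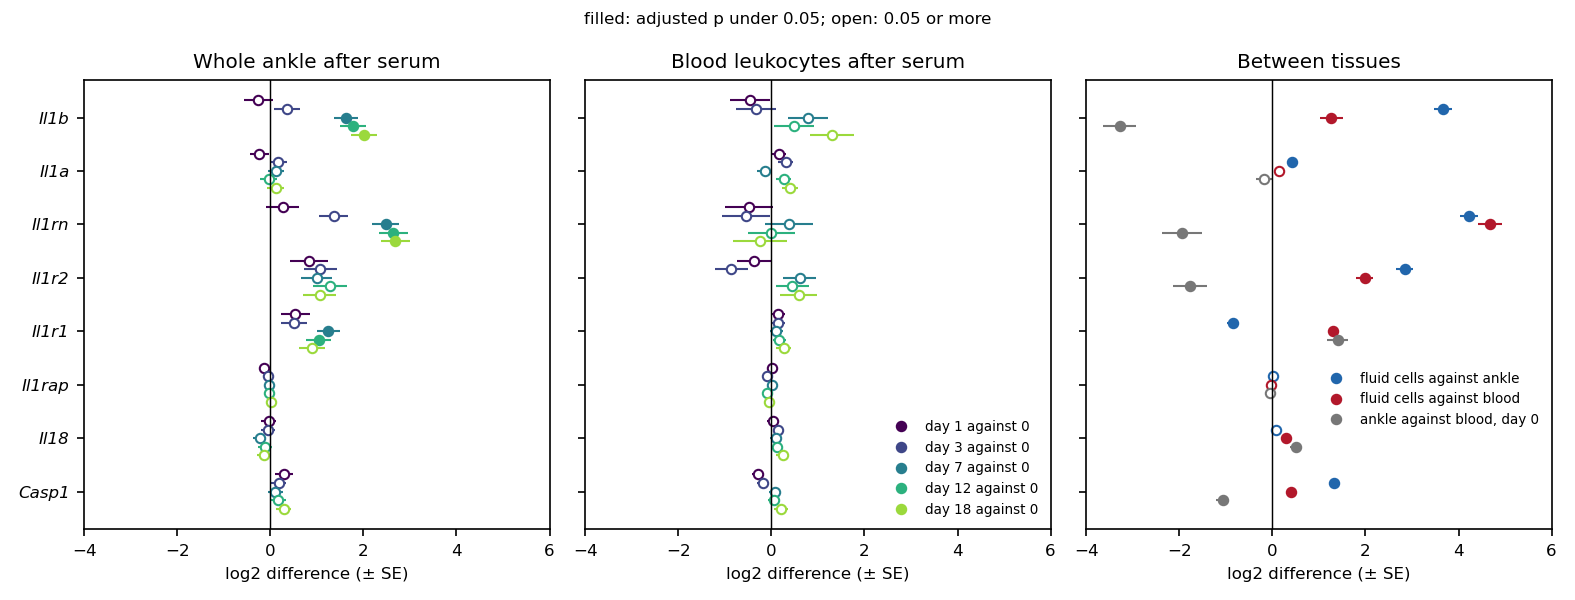
Log2 differences ± SE (horizontal axis) of the 8 genes (rows) in ankle and in blood at 5 days against day 0, and between tissues; the day colours of the blood panel hold for the ankle panel. Filled points passed an adjusted p of 0.05: Il1rn, Il1b and Il1r1 in ankle at days 7 and 12, Il1rn and Il1b there at day 18, none in blood, and 6 genes in each comparison of fluid cells.

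Summed markers of myeloid cells rose with Il1b and Il1rn in ankle, and those of red cells fell. The summed intensity of the 13 measured genes of a 15-gene neutrophil list was 987 to 999 at day 0, 1240 to 1655 at day 3, 3017 to 4721 at day 7, 2359 to 3598 at day 12 and 3710 to 4993 at day 18. That list summed to 10482 to 18723 in fluid cells and 4903 to 15792 in blood over all days. Of its 13 genes, 3 had ankle means above 6.85 at day 0, 6 at day 7 and 8 at day 18, so bright genes weigh most. The 10 measured genes of a 12-gene monocyte and macrophage list summed to 3358 to 6075 at day 0, 3977 to 6859 at day 1, 6044 to 6242 at day 3, 6159 to 8646 at day 7, 6569 to 8408 at day 12 and 6418 to 8061 at day 18 in ankle, to 14538 to 31169 in fluid cells, and to 3780 to 8100 in blood. The monocyte and macrophage sums of fluid and blood arrays did not overlap, and nor did their Il1rn values. This was not particular to that list. Fibroblast sums were also higher in fluid without overlap (2263 to 18463, against 1039 to 1271 in blood). T and NK cell sums (354 to 509, against 1883 to 3505) and B cell sums (327 to 493, against 4981 to 7659) were lower in fluid without overlap. In ankle the 3 measured genes of a 5-gene red cell list summed to 6014 to 9582 at day 0, 5556 to 6453 at day 1, 3056 to 4785 at day 3, 1676 to 4194 at day 7, 2732 to 4235 at day 12 and 3654 to 6957 at day 18. Their sums at days 3, 7 and 12 lay below those of day 0, and 2 of the 3 genes fell at days 7 and 12. Skeletal muscle markers (7 genes) summed to 4059 to 12175 in ankle at day 0 and to 2138 to 3921 at day 12, and overlapped day 0 at the other days. Mast cell markers (10 genes) summed to 556 to 729 in ankle at day 0, 788 to 917 at day 3 and 687 to 842 at day 7. Their sums were 1240 to 2284 in fluid cells and 665 to 1251 in blood. The part of any of these cell types in the rises of Il1b and Il1rn in ankle was not tested. Nor was their part in the differences between fluid cells and the other tissues.

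Whether antagonist and agonist changed equally was asked within arrays, by the log2 difference between 2 genes on the same array. Only changes of such a difference between groups are read, because each probe set has its own brightness. For 12 such comparisons exact two-sided permutation tests over arrays were run, with Benjamini-Hochberg adjustment over the 12. In ankle, Il1rn minus Il1b was 0.85 ± 0.31 (SD, n = 13) at days 3 to 18 and 0.00 ± 0.27 (n = 4) at day 0, a difference of 0.85 (adjusted exact p = 0.00106), and all 13 later arrays lay above all 4 of day 0. At day 3 alone it was 1.00 ± 0.18 (n = 3). Both genes had means within the range of the controls at days 0 and 3, and Il1b also at day 7, so the test compares these readings and does not show which gene changed more. In blood the values were -1.93 ± 0.54 (n = 11) at days 3 to 18 and -1.34 ± 0.14 (n = 3) at day 0, which did not pass (difference -0.59, adjusted exact p = 0.106). The 2 blood arrays of day 18 were the lowest, at -2.71 and -3.05.

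Fluid cells had Il1rn minus Il1b at 1.41 ± 0.37 (n = 13), against -1.93 ± 0.54 in blood (n = 11) and 0.85 ± 0.31 in ankle (n = 13). Within days the excess was 3.41 over blood (adjusted exact p = 2.86e-05, with the smallest p the permutations allow) and 0.56 over ankle (adjusted exact p = 0.00106), where the same limit holds. The fluid thus differed from blood more in the antagonist gene than in the agonist gene.

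The decoy and the signalling receptor were compared in the same way, with Il1r1 near background throughout. Il1r2 minus Il1r1 was 2.27 ± 0.61 at days 3 to 18 (n = 13) and 2.12 ± 0.62 at day 0 (n = 4) in ankle, a difference of 0.15 (adjusted exact p = 0.744), with the arrays of day 7 spread from 0.97 to 3.12. Fluid cells stood at 5.92 ± 0.74 (n = 13), 3.68 above ankle within days (adjusted exact p = 2.14e-05), and all fluid arrays lay above all ankle arrays. Over blood, at 5.29 ± 0.82 (n = 11), the excess was 0.67 and did not pass (adjusted exact p = 0.0786). With the other probe set of Il1r2 the excess over blood was 1.36 (adjusted exact p = 0.00399), so this result turns on the probe set. Within the fluid the difference was 6.77 ± 0.30, 5.13 ± 0.59, 5.80 ± 0.18 and 6.24 ± 0.38 at days 3, 7, 12 and 18, the time course of Il1r1 upside down.

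Of the agonists in ankle, Il1b minus Il1a was 2.25 ± 0.83 (n = 13) at days 3 to 18 and 0.89 ± 0.11 (n = 4) at day 0 (adjusted exact p = 0.0122). This difference follows the readings of Il1b, since Il1a never left the range of the controls. Without the 4 albumin arrays the difference was 1.18 and missed the threshold (adjusted exact p = 0.0612). Fluid cells, at 5.45 ± 0.63, exceeded ankle by 3.23 (adjusted exact p = 2.14e-05) and blood by 1.13 (adjusted exact p = 0.00701) within days.

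**Figure D4:**
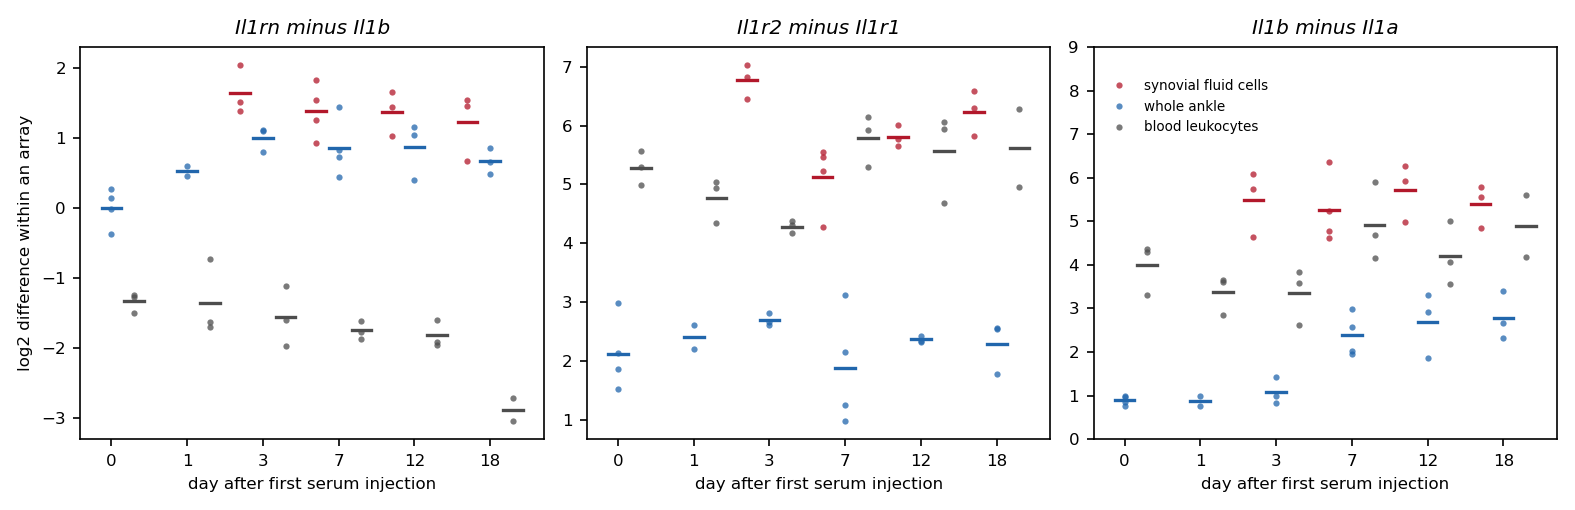
Log2 differences between 2 genes within an array (vertical axis), Il1rn minus Il1b, Il1r2 minus Il1r1 and Il1b minus Il1a, by day after the first serum injection, with 1 point per array and bars at group means. For Il1rn minus Il1b the ankle arrays of days 3 to 18 lie between 0.40 and 1.43, above the day 0 arrays at -0.37 to 0.26, and the blood arrays of days 3 to 18 lie between -3.05 and -1.12.

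The difference between the responses of ankle and blood was tested as an interaction, the mean change of days 3 to 18 from day 0 in ankle minus that in blood. Il1rn passed, with a change of 2.29 in ankle and -0.11 in blood (difference 2.40 ± 0.49, adjusted p = 0.00351). It was the only 1 of the 8 called, against 4.12% of all genes (2.01% higher). Il1b changed by 1.45 in ankle and 0.56 in blood, and the difference of 0.88 ± 0.41 did not pass (adjusted p = 0.242). The Il1b means lay within the range of the controls in ankle at days 0, 3 and 7, and above it in blood. The Il1rn means lay within it in ankle at days 0 and 3 and in blood at days 3 and 18. These tests therefore do not show that the 2 genes responded differently. Il1r2 had 1.1 in ankle and 0.20 in blood (adjusted p = 0.238), and Il1r1 had 0.92 and 0.17 (adjusted p = 0.1), which passed without replicate 2 of ankle day 0 (adjusted p = 0.0116).

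Of 12 genes of receptor-proximal signalling, 8 were measured and 0 passed at any day in ankle or blood. Of all genes, 0%, 0.23%, 6.73%, 3.24% and 2.01% were called in ankle at days 1, 3, 7, 12 and 18. In blood 0% of all genes were called at each day. Counts of 0 in lists this short are near those shares and say little about the pathway. Of 12 genes of the NF-kB branch, 10 were measured, and Nfkbia, the inhibitor that NF-kB itself induces, rose in ankle at day 12 by 0.84 ± 0.17 (adjusted p = 0.00745) with 0 others at any day. Of 13 genes of inflammasomes and processing proteases, 6 were measured, and Casp4, an inflammatory caspase, was higher at day 7 by 0.56 ± 0.15 (adjusted p = 0.0335) and at day 12 by 0.63 ± 0.17 (adjusted p = 0.0466), within the range of the controls. Other ligands of the family had 1 of 10 genes measured, and other receptors and binding proteins 3 of 6, with 0 called in ankle or blood.

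Of 19 genes that fibroblasts or cartilage cells are known to turn on under interleukin 1, 16 were measured, of which 3, 10, 10 and 9 rose in ankle at days 3, 7, 12 and 18 and 0 fell. The share of all genes called higher was 0.182%, 3.09%, 1.87% and 1.13% at those days. The median difference of the 16 was 0.58, 1.81, 2.16 and 1.57 at those days. Mmp3, a matrix protease, was 3.98-fold higher than at day 0 at day 3, 13.2-fold at day 7, 14.5-fold at day 12 and 16.1-fold at day 18 (adjusted p = 1.43e-07 at day 18). Mmp13, a collagenase, was higher by 4.85 ± 0.33 at day 18 (adjusted p = 8.89e-08), and Saa3, an acute phase protein gene, by 5.76 ± 0.33 at day 7 (adjusted p = 9.52e-09), both from day 0 levels within the range of the controls. In fluid cells 7 of the 16 were higher and 1 lower at day 7 than at day 3, where 2.56% of all genes were called (2.17% higher). Mmp3 was higher by 3.32 ± 0.34 (adjusted p = 4.56e-05). The lower one, the chemokine gene Ccl2, had a log2 difference of -1.87 ± 0.27 (adjusted p = 0.000846). Other cytokines induce these genes too, so the list is no measure of interleukin 1 itself. The list was also chosen with earlier results of these data known, so its counts are no independent support.

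In the comparison of fluid cells with ankle, 5 of the 8 receptor-proximal genes were higher and 0 lower (18.7% and 19.4% of all genes), among them Myd88, the adaptor of the receptor, at 1.78-fold, and Traf6, a ubiquitin ligase downstream of it, at 1.61-fold. Nfkbia was 2.33-fold higher (adjusted p = 1.19e-07), 1 of 4 NF-kB branch genes that were higher. Against blood 3 of the 8 were higher and 2 lower, and 4 of the 10 NF-kB branch genes were lower and 0 higher, where 24.8% of all genes were higher and 34% lower. Il18r1, the receptor of interleukin 18, was lower in fluid cells than in blood (log2 difference -2.13 ± 0.10, adjusted p = 9.98e-16) and higher than in ankle by 0.60 ± 0.06 (adjusted p = 4.51e-09). Its mean of 5.65 in fluid cells lay within the range of the controls.

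Genes whose group means ran most like those of each member were ranked by Pearson's r over the 16 group means, among 4245 other genes with a group mean above 6.85. The points share tissue, preparation and array, so r is a description. Il1b ran with Cxcl2, a chemokine that attracts neutrophils (r = 0.993), Slfn4 (0.982), Cxcr4 (0.977), H2-Q10 (0.977) and Fpr2, a receptor for formylated peptides (0.974). Il1rn ran with Acod1, which makes itaconate in activated macrophages (0.981), Cd300c2 (0.979), Adgrg3 (0.977), the protease gene Ctss (0.976) and Il10rb, a chain of the interleukin 10 receptor (0.974). Il1r2 ran with Lilr4b (0.977), Arg2 (0.973), Hdc, the enzyme that makes histamine (0.972), Asprv1 (0.964) and Ets2 (0.962). Il1r1 ran with Cryz (0.981), Csrp2 (0.980), Fbln2, an extracellular matrix protein (0.979), Gpc1 (0.976) and the collagen gene Col5a1 (0.975). Among the members, r was 0.949 between Il1b and Casp1, 0.917 between Il1rn and Il1r2, 0.772 between Il1rn and Il1b, and -0.395 between Il1r1 and Il1b. Casp1 lay within the range of the controls in every array, and Il1r1 in every group mean. Their r values thus rest on readings near background.

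Of the series as a whole, array medians lay between 57.7 and 64.1 in linear intensity, and replicates of a group correlated at r of 0.941 to 0.995 over probe sets. Ankle replicate 1 of days 0, 1, 7 and 12 carried albumin transcripts, at log2 6.39 to 10.65, and the remaining 15 ankle arrays reached 5.19. The 3' to 5' beta-actin ratio was 3.15 to 4.25 in later ankles and 2.73 to 3.50 at day 0 on the log2 scale. For 5 arrays, 4 of fluid and 1 of blood, the labels describe a preparation unlike that of the rest of their tissue. The tissues carried the markers of their labels: B cell markers summed to 4981 to 7659 in blood and at most 495 in the other tissues, and fibroblast markers were highest in ankle. Red cell markers were still highest in blood, taken after red cell lysis, with a median sum of 17823 (11284 to 22511). Their median sum was 4223 in ankle and 4021 in fluid cells. For replicate 2 of the day 0 ankles, 1 label begins with a code unlike the title, and the rest of its labels give day 0.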

How the data were processed

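Expression was measured on 49 Affymetrix mouse arrays, with groups taken from the sample titles. The deposited values are intensities on the linear scale, made by the authors with RMA, per the submitters' processing notes; RMA is a method of background correction, quantile normalization and summary per probe set. Its version and the scanner settings are not given in the sources used here. The table held 12488 probe sets; the platform annotation paired 10833 with 1 symbol and 396 with several, which were not used. The probe set with the highest mean stood for each of 8251 genes (2073 had several).

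Log2 values were fitted with limma 3.58.1 (lmFit and eBayes with a trend) in R 4.3.3, 1 mean per tissue and day, over the arrays of the tissues compared, with Benjamini-Hochberg adjustment over all genes and a threshold of 0.05; the procedure was tested on simulated data. Within-array differences had exact permutation tests. Members are always described; of the pathway lists, up to 4 genes with the smallest p are named, and likeness names the top 5. The members and lists were chosen with earlier results of these data known. Alternatives were other normalization, floor, probe set choice, array weights, a beta-actin covariate, a replicate block, 1 fit over all tissues, and arrays left out. The number of arrays limits the precision.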

Additional observations from a re-analysis of the deposited data

Results flagged for a closer look

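The change of Il1rn from day 0 differed between ankle (2.29) and blood (-0.11) by 2.40 on the log2 scale, tested as an interaction. Its means lay within the range of the controls in ankle at days 0 and 3 and in blood at days 3 and 18. In 24 combinations of a gene and a group of 4 arrays, an array stood far from the other 3 in 2, where chance gives about 1 in 20. Ankle day 0 replicate 2 had Il1r1 at 6.14, against 5.19 to 5.31 in the other 3 arrays. Fluid day 7 replicate 1, one of the arrays washed out of dissected ankles, had Il1rap at 3.32, against 3.07 to 3.11 in the other 3 arrays, all below the median of the negative controls.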

How the results depend on the processing

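Array weights moved the counts of members called most: 3 at ankle day 3 (526 of all 8251 genes called), 5 at ankle day 18 (1540), 3, 1 and 2 at blood days 3, 12 and 18 (3948, 2238 and 2333), 2 at fluid day 18 (2752) and 4 in the interaction (3531). Equal weights called 19, 166, 0, 0, 0, 263 and 340 of all genes in these comparisons. So many genes were called with array weights that the member counts in blood, at fluid day 18 and in the interaction weigh little. Leaving out dim genes took Il1a, Il1r1, Il1rap, Il18 and Casp1 out of the fit of ankle against blood at day 0. The 3 members still tested there, Il1b, Il1rn and Il1r2, all passed. Il1r2 minus Il1r1 in ankle was -0.0763 with the mean of the probe sets and -0.300 with the other probe set, which was chosen after seeing the data. Against blood in fluid cells it was 1.02 and 1.36 with these and passed. In blood it was 0.21 after quantile normalization anew, 0.0129 with a floor at the 20th percentile and 0.11 without arrays of another preparation. Il1b minus Il1a in ankle was 1.18 without the albumin arrays and no longer passed. Apart from the genes left out as dim, the cause of these changes was not tested. Leaving out each replicate in turn, members called in the interaction were 1 to 2 (Il1r1 added without replicate 2 of ankle day 0), Il1r2 minus Il1r1 ranged from -0.0511 to 0.43 in ankle, -0.15 to 0.14 in blood and 0.51 to 0.84 between fluid cells and blood, and Il1b minus Il1a in blood from -0.0420 to 0.49. No called value reversed, and Il1b and Il1rn in ankle at days 7 to 18 passed under all alternatives run. Same-numbered arrays correlated at medians of 0.20, -0.06 and 0.19 in ankle, fluid and blood after removal of group means, with minima from -0.45 to -0.18. For arrays of different numbers the medians were -0.11, -0.06 and -0.13. Same-numbered arrays were thus more alike in ankle and blood but not in fluid, and the main fits have no term for this. In ankle, fluid and blood, 12 of 19, 7 of 13 and 10 of 17 arrays were most like an array of their own number. With the replicate number as a block, 4 members were called in ankle at days 7 and 12 (Il1r2 added). Genes called were then 917 where no block gave 555 at ankle day 7, 500 where it gave 267 at day 12, and 413 where it gave 166 at day 18.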
